A study of Homo sapiens with 8 samples.

Results

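Integrins and laminins were examined as a gene family in CFPAC-1, an established human cell line from a pancreatic ductal adenocarcinoma, with and without a transgene for ADRA2A, the alpha-2A adrenergic receptor. Members were chosen by symbol alone, from the genes in the count table named as an integrin alpha chain, an integrin beta chain from ITGB1 to ITGB8, or a laminin alpha, beta or gamma chain. The family described here has 37 genes of the 58870 in the table: 18 integrin alpha, 8 integrin beta, 5 laminin alpha, 4 laminin beta and 2 laminin gamma chains. The series is bulk RNA sequencing of 8 samples of total RNA: 4 samples of CFPAC-1 with an empty vector and 4 of CFPAC-1 with the ADRA2A transgene. All 8 had the same growth conditions, 72 hours in IMDM medium with 10% FBS (fetal bovine serum) and 1% penicillin-streptomycin, and received no agent. The promoter of the transgene, and whether a group was a clone or a pool, were not given in the sources used here. Nothing in the labels ties a replicate number to a separate culture or transduction, so p-values measure the spread between these samples, which may be technical.

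Integrins are receptors made of 1 alpha and 1 beta chain that bind matrix or other cells outside the membrane and attach to the actin or keratin cytoskeleton inside it. The pair of chains sets the ligand: one group binds laminin, one binds collagen, one binds the RGD motif of fibronectin and related proteins, and one is used mainly by leukocytes. Laminins are secreted trimers of an alpha, a beta and a gamma chain that build the basement membrane under epithelia. In ductal epithelium and its carcinomas, laminin-332 and laminin-511 are the usual basement membrane laminins, and the receptors α3β1, α6β1 and α6β4 hold cells to them.

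Library totals lay between 14427040 and 17528910 estimated counts. ADRA2A had 0 counts in all 4 empty-vector libraries and between 112 and 172 in the ADRA2A libraries. The cells carried epithelial markers in both groups: EPCAM stood at 471 and 508 CPM (the count scaled to library size, here with TMM factors, from a trimmed mean of log ratios), and KRT19 at 2826 and 3249 CPM, in the empty-vector and ADRA2A cells. Those 2 were called higher in the ADRA2A cells (adjusted p below 0.05 in edgeR's test, described below), and 4 others were called lower: KRT7 (log2 fold change -0.43), CDH1 (-0.33), SOX9 (-0.21) and KRT18 (-0.09). KRT8 was not called. Of 8 duct markers looked up, CFTR was the exception, with between 4 and 20 counts per library. Of the 8 fibroblast markers 7 had a mean under 1 CPM, and the list summed to between 2.04 and 2.55 CPM in the empty-vector and between 1.18 and 1.72 CPM in the ADRA2A libraries. Here and below a level is RNA in a bulk sample, in which a change in every cell and a change in the share of cells that make the RNA cannot be told apart.

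Promoter sequence is shown for 4 members, chosen because the results below turn on them. ITGA5 rose most among the members, ITGA2 fell most among members of at least 10 CPM, and LAMA3 and LAMB3 encode partner chains of laminin-332, of which LAMA3 was called lower and LAMB3 was not called. Each line gives the 250 bases before a transcription start in RefSeq (GRCh38.p14), 5′ to 3′ on the strand of the gene. The ITGA5 window is chr12:54419267-54419516 (minus strand), the ITGA2 window chr5:52989102-52989351 (plus strand), the LAMA3 window chr18:23872770-23873019 (plus strand) and the LAMB3 window chr1:209651375-209651624 (minus strand). Capitals mark matches, on either strand, to TGANTCA (the AP-1 motif), TGACGTCA (the cAMP response element), GGAATG (the TEAD motif), TATAAA (the TATA box) and GGGCGG (the GC box).
ITGA5: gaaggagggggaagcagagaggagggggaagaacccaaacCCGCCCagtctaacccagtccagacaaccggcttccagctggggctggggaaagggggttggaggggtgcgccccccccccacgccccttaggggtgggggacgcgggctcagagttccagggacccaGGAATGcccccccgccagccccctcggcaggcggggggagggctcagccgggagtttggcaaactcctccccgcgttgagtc
ITGA2: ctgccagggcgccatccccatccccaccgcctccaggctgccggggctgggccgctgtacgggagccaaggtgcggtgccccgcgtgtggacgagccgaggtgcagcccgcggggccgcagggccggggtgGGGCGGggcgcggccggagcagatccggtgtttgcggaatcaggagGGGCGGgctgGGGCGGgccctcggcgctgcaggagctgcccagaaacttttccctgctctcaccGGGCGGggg
LAMA3: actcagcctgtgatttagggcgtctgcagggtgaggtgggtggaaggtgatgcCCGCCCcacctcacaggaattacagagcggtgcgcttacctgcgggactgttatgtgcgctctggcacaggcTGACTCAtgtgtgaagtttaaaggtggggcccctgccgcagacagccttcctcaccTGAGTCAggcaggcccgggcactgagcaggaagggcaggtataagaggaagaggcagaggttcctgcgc
LAMB3: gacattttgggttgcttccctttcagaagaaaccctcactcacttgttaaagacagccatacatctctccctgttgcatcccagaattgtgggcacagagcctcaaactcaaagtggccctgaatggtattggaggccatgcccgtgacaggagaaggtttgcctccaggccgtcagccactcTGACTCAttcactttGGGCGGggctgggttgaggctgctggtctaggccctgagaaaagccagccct
The LAMA3 window held TGANTCA at 125 and at 69 bases before the start, and the LAMB3 window held it at 67. The ITGA2 window held GGGCGG or its complement 4 times and ITGA5 once, at 210 bases before the start, beside GGAATG at 82. RefSeq windows matched 26 of the 37 members, and 21 of the members tested below with 28 windows among them. TGANTCA was in 2 of those 28 windows, those of LAMA3 and LAMB3, and in 6.57% of 35116 promoter windows of the same length. TGACGTCA was in 0 of the 28 (1.65% of all), GGAATG in 3 (11.9%), TATAAA in 2 (10.7%) and GGGCGG in 15 (42.6%). LAMB3 has 2 more RefSeq windows, and TGANTCA was in neither. The LAMB3 window printed here lies inside the annotated gene, which starts at 209652425 on the minus strand. The window directly before that start is chr1:209652426-209652675. No window was matched for ITGA3, ITGA7, ITGB2, ITGB3 or ITGB4. A match is a run of letters, and no factor binding was measured.

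Of the 37 members, 26 had enough counts to be tested (edgeR's filterByExpr) and 11 did not. By edgeR's quasi-likelihood test 18 of the 26 were called, meaning an adjusted p below 0.05 (Benjamini-Hochberg, over the 14785 genes that entered the test), where 42.7% of all genes were. Of these, 10 were higher in the ADRA2A cells (21.6% of all genes) and 8 were lower (21.1%). For 16 of the 26 no library of one group reached the range of the other, as for 39.2% of all genes. Abundant genes were called more often: 14 of the 20 members with a mean of 10 CPM or more were called and 12 had separate groups, where 49.3% of the 10160 genes at that level were called and 44.8% had separate groups. The median log2 fold change was 0.02 over the 26 members and 0.00 over all genes, and the median absolute log2 fold change 0.39 and 0.18. Among the called genes a log2 fold change of 1 or more in size was found for 3 members, ITGA5, ITGB3 and ITGA4, and for 4.66% of all genes tested. ITGA4 and ITGA11 reached the level of the filter in all libraries of their higher group and in 1 library of the other, so a difference was built into their entering the test. Without these 2 members, 24 were tested, 10 were higher, 7 lower and 15 had separate groups. Of the 24, 2 were called with a log2 fold change of 1 or more in size, ITGA5 and ITGB3.

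**Figure D1:**
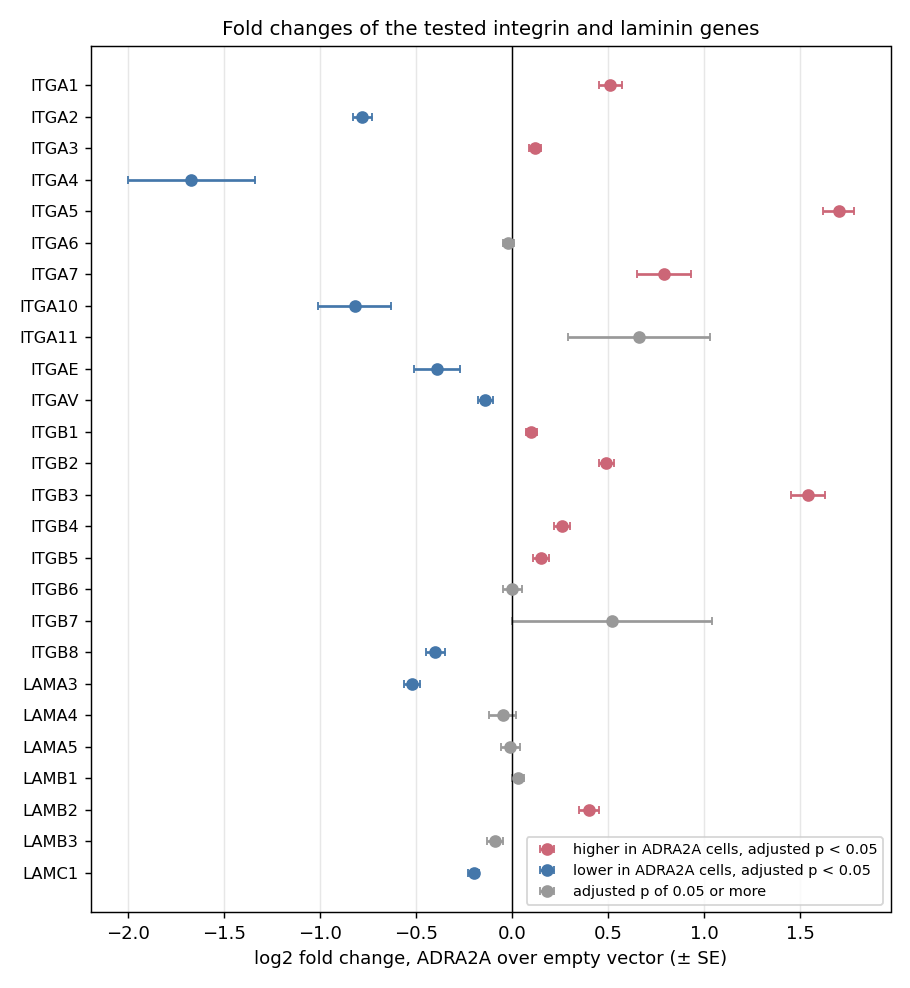
Fitted log2 fold change of the 26 tested integrin and laminin genes, ADRA2A over empty vector, with standard errors (n = 4 libraries per group). ITGA5 and ITGB3 lie farthest to the right at 1.70 and 1.54, ITGA4, which entered the test through the empty-vector libraries, farthest to the left at -1.67, and the laminin chains all lie between -0.52 and 0.40.

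Among the RGD-binding receptors the chains did not move together. Of 8 such members 6 were tested. ITGA5, ITGB3 and ITGB5 rose, ITGAV and ITGB8 fell, and ITGB6 had an adjusted p of 0.943 in edgeR's test. These are 3 of 6 higher and 2 lower, beside 21.6% and 21.1% of all genes. ITGA5 (ENSG00000161638.11; GRCh38 chromosome 12, 54395261 to 54419266, minus strand) encodes the alpha chain of the main fibronectin receptor, α5β1. It measured 10.2, 11.7, 8.77 and 9.36 CPM in empty-vector replicates 1 to 4 and 32.7, 31.3, 32.3 and 33.6 CPM in ADRA2A replicates 1 to 4. Every ADRA2A library was above every empty-vector library by a wide margin, and the fold was 3.26 (log2 fold change 1.70 with a standard error of 0.08, edgeR adjusted p = 2.49e-12).

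ITGA5 lay in a stretch of chromosome 12 whose genes were mostly higher in the ADRA2A cells. Of its 40 nearest tested genes, 20 on each side, 32 had a log2 fold change above 0, with a median of 0.21. Among these 40, 23 were called higher and 1 lower, beside 21.6% and 21.1% of all genes. With 10 genes on each side the median was 0.41. The part of the stretch in the value of ITGA5 was not tested.

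ITGB3 (ENSG00000259207.7; chromosome 17, 47253827 to 47313743, plus strand) encodes the beta chain of the vitronectin and osteopontin receptor αVβ3. It measured 12.5, 12.9, 9.64 and 11.4 CPM in the empty-vector libraries and 35.8, 30.8, 35.2 and 33.5 CPM in the ADRA2A libraries. The groups were again far apart, with a fold of 2.92 (log2 fold change 1.54, standard error 0.09, edgeR adjusted p = 2.32e-11). ITGA2B, the platelet chain that also pairs with β3, was at 1 to 12 counts and was not tested. Megakaryocyte and platelet markers were close to 0: PF4 and PPBP had at most 3 counts in a library, and GP9 and GP1BA had 0 in all 8. The genes around ITGB3 had a median log2 fold change of 0.13, with 9 of 40 called higher and 3 lower, whose part was not tested.

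The other beta chains that pair with αV changed less. ITGB5 (ENSG00000082781.12; chromosome 3, 124761948 to 124901418, minus strand), of the vitronectin receptor αVβ5, measured 109, 120.0, 111 and 113 CPM in the empty-vector and 127, 123, 126 and 124 CPM in the ADRA2A libraries. Its groups were separate but close, at a fold of 1.11 (log2 fold change 0.15, standard error 0.04, edgeR adjusted p = 0.0058). ITGB8 (ENSG00000105855.10; chromosome 7, 20330702 to 20415754, plus strand) belongs to αVβ8, a receptor known for activating latent TGF-beta. It measured 175, 164, 167 and 171 CPM in the empty-vector and 133, 118, 122 and 138 CPM in the ADRA2A libraries. All ADRA2A libraries were below all empty-vector libraries (log2 fold change -0.40, standard error 0.05, edgeR adjusted p = 7.61e-07). ITGB6, which also forms a TGF-beta-activating receptor with αV and is found in epithelia, was at 91.7 ± 5.48 and 92.0 ± 2.15 CPM (n = 4 each, SD) in the 2 groups, with a log2 fold change of 0.00 (standard error 0.05).

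The shared alpha chain ITGAV (ENSG00000138448.12; chromosome 2, 186590010 to 186680901, plus strand) measured 264, 253, 244 and 266 CPM in the empty-vector and 252, 225, 217 and 239 CPM in the ADRA2A libraries. The groups overlapped. The log2 fold change was -0.14 (standard error 0.04, edgeR adjusted p = 0.015), and the call was lost without empty-vector replicate 4 (adjusted p = 0.0584), without ADRA2A replicate 2 (0.0527) and without ADRA2A replicate 3 (0.0671). Per kilobase of the longest annotated transcript, ITGA5 stood at 0.062 ± 0.0079 of ITGAV in the empty-vector and at 0.222 ± 0.0127 in the ADRA2A cells (n = 4 each, SD), and ITGB3 at 0.0766 ± 0.0089 and 0.202 ± 0.011 of ITGB5. Both ratios rose without overlap. With mean transcript lengths ITGA5 stood at 0.148 and 0.529 of ITGAV and ITGB3 at 0.0424 and 0.111 of ITGB5, so each remained the less abundant chain by either length. ITGA8 had 0 counts in all libraries, which allows between 0.171 and 0.208 CPM per library (3 counts, for counting error only).

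**Figure D2:**
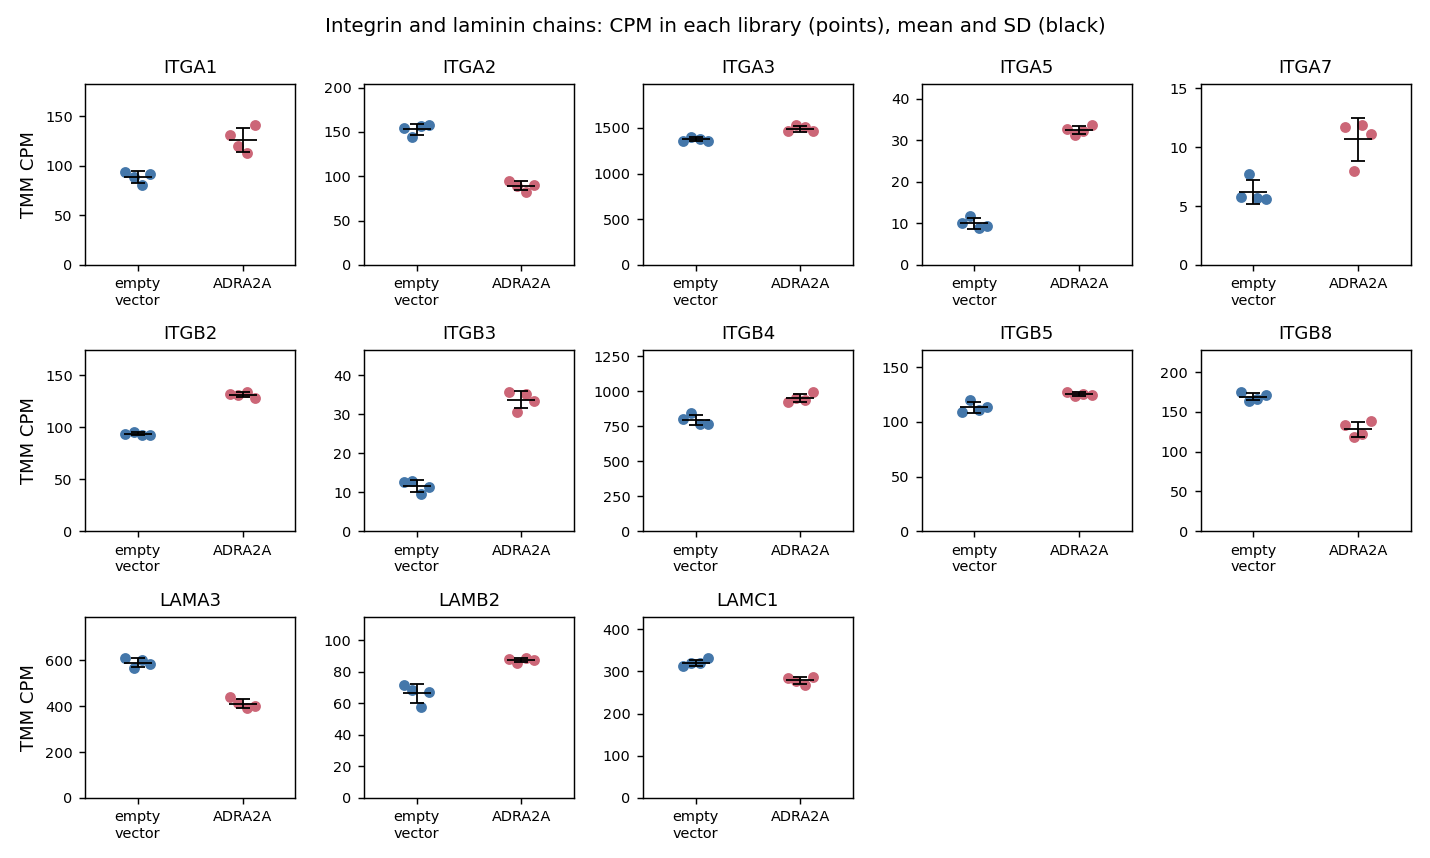
TMM-scaled CPM of the 13 members that were called, reached 10 CPM in the higher group and had separate groups. Points are libraries, black marks the mean and SD of 4; each vertical axis starts at 0. ITGA5 and ITGB3 stand about 3-fold apart (3.26 and 2.92), and the groups of the other 11 are closer.

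The collagen-binding receptors pair an alpha chain with β1. All 4 alpha chains were tested. ITGA1 rose, ITGA2 and ITGA10 fell, and ITGA11 did not pass. These are 1 of 4 higher and 2 lower, beside 21.6% and 21.1% of all genes. ITGA2 (ENSG00000164171.11; chromosome 5, 52989340 to 53094779, plus strand), whose α2β1 receptor prefers fibrillar collagen, measured 154, 144, 157 and 157 CPM in the empty-vector libraries and 94.3, 89.3, 82.1 and 90.4 CPM in the ADRA2A libraries. It was 1.72-fold lower in the ADRA2A cells, with no overlap (log2 fold change -0.78, standard error 0.05, edgeR adjusted p = 4.35e-11). ITGA1 (ENSG00000213949.9; chromosome 5, 52787916 to 52959209, plus strand), whose α1β1 receptor prefers basement membrane collagen, is the neighbouring integrin gene. It measured 94.0, 89.0, 80.5 and 91.4 CPM in the empty-vector and 131, 120.5, 113 and 141 CPM in the ADRA2A libraries. It was 1.42-fold higher, again with no overlap (log2 fold change 0.51, standard error 0.06, edgeR adjusted p = 1.14e-06).

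The adjacent genes ITGA1 and ITGA2 therefore moved in opposite directions. The 40 tested genes around each had a median log2 fold change of -0.05. Per length, the ratio of ITGA2 to ITGA1 went from 2.37 ± 0.203 in the empty-vector to 0.969 ± 0.0617 in the ADRA2A cells (n = 4 each, SD), with no overlap. Reads of ITGA1 can be confused with those of PELO, a gene on the same strand within its gene body, which was at 39.6 and 37.6 CPM with a log2 fold change of -0.08. ITGA10, a cartilage-type collagen receptor chain, was at 5.95 ± 1.02 CPM in the empty-vector and 3.39 ± 0.976 CPM in the ADRA2A cells (n = 4 each, SD; log2 fold change -0.82, standard error 0.19, edgeR adjusted p = 0.00152). ITGA11 was at 6 to 23 counts, and did not pass (log2 fold change 0.66, standard error 0.37, edgeR adjusted p = 0.159). It had entered the test through the ADRA2A libraries, where it was higher, so a difference was built into these values.

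The laminin-binding receptor chains ITGA3, ITGB4 and ITGA6 were, after ITGB1, the most abundant integrins per length, and they moved little. Of 4 members ITGA3, ITGA7 and ITGB4 rose and ITGA6 did not pass. These are 3 of 4 higher and 0 lower, beside 21.6% and 21.1% of all genes. ITGB4 (ENSG00000132470.14; chromosome 17, 75721328 to 75757818, plus strand) encodes the beta chain of α6β4, the receptor that anchors hemidesmosomes to keratin. It measured 801, 848, 764 and 769 CPM in the empty-vector and 924, 952, 939.7 and 996 CPM in the ADRA2A libraries, a fold of 1.20 with no overlap (log2 fold change 0.26, standard error 0.04, edgeR adjusted p = 6.57e-06). Its partner ITGA6 (ENSG00000091409.15; chromosome 2, 172427354 to 172506459, plus strand) was at 555 ± 7.13 and 547 ± 7.07 CPM (n = 4 each, SD; log2 fold change -0.02, standard error 0.03, edgeR adjusted p = 0.62). Per length, the ratio of ITGB4 to ITGA6 was 1.42 ± 0.0829 in the empty-vector and 1.72 ± 0.0701 in the ADRA2A cells (n = 4 each, SD).

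ITGA3 (ENSG00000005884.18; chromosome 17, 50055968 to 50090481, plus strand), the alpha chain of α3β1, measured 1361, 1402, 1379.8 and 1354 CPM in the empty-vector and 1463, 1528, 1511 and 1464 CPM in the ADRA2A libraries. The groups were separate at a fold of 1.09 (log2 fold change 0.12, standard error 0.03, edgeR adjusted p = 0.00178). ITGB1 (ENSG00000150093.19; chromosome 10, 32887273 to 33005792, minus strand), the beta chain shared by most of these receptors, measured 3183, 3381, 3082 and 3149 CPM in the empty-vector and 3441, 3462, 3453 and 3378 CPM in the ADRA2A libraries. Empty-vector replicate 2 overlapped the ADRA2A libraries, and the fold was 1.07 (log2 fold change 0.10, standard error 0.03, edgeR adjusted p = 0.00745). ITGA7 (ENSG00000135424.16; chromosome 12, 55684568 to 55716404, minus strand), a laminin receptor chain best known from muscle, measured 5.74, 7.74, 5.69 and 5.63 CPM in the empty-vector and 11.7, 7.98, 11.9 and 11.1 CPM in the ADRA2A libraries. The highest empty-vector and the lowest ADRA2A library nearly met (log2 fold change 0.79, standard error 0.14, edgeR adjusted p = 0.000113).

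ITGA7 shares its part of chromosome 12 with the stretch described for ITGA5: 31 of its 40 nearest tested genes were above 0, with a median log2 fold change of 0.15. On the opposite strand its gene body overlaps METTL7B, which was at 15.6 and 24.9 CPM (log2 fold change 0.67), and BLOC1S1, at 39.0 and 39.3 CPM. The use of strand in the authors' counting is not given in the sources used here, so reads of ITGA7 and these genes cannot be told apart with certainty.

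**Figure D3:**
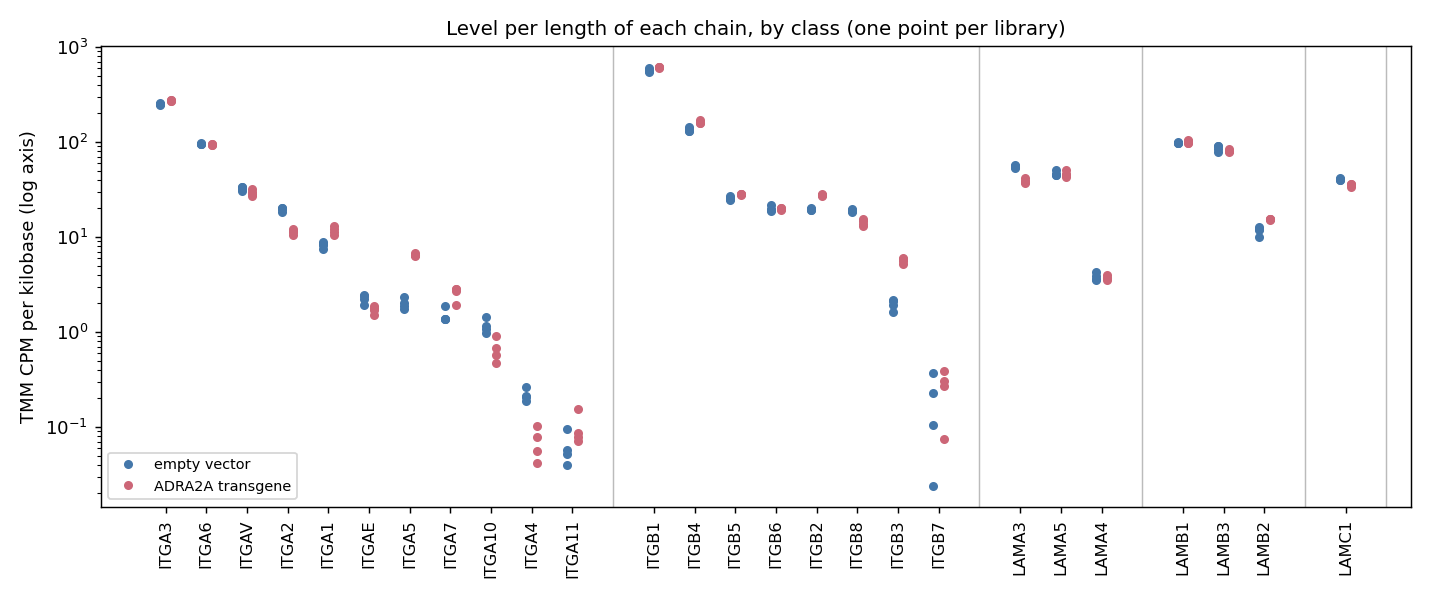
TMM-scaled CPM per kilobase of the longest annotated transcript (log axis) for the 26 tested members, by chain class. Each point is 1 library, blue for empty vector and red for ADRA2A. ITGA3 and ITGA6 lead the alpha chains, and ITGB1 leads the beta chains at 570 and 612 CPM per kilobase.

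In the empty-vector cells ITGB1 led at 569.8 ± 22.9 CPM per kilobase, followed by ITGA3 at 251 ± 3.93, ITGB4 at 135 ± 6.56, ITGA6 at 95.4 ± 1.23 and ITGAV at 32.3 ± 1.25 (n = 4 each, SD). By mean transcript lengths ITGB5 (101) and ITGB2 (60.2) stood above ITGAV (51.0). By the longest transcript ITGB6 (19.8 ± 1.18), ITGB2 (19.6 ± 0.313) and ITGA2 (19.5 ± 0.771) did not differ beyond their spread in the empty-vector cells. ITGA3 made up 60.6% ± 0.595 of the summed alpha-chain level in the empty-vector and 63.2% ± 1.15 in the ADRA2A cells, and ITGA6 23.1% ± 0.350 and 21.8% ± 0.237 (n = 4 each, SD). ITGA5 went from 0.484% ± 0.0585 to 1.51% ± 0.0532 and ITGA2 from 4.72% ± 0.212 to 2.64% ± 0.148 of that sum (n = 4 each, SD). Shares and the size of their changes depend on the transcript length used, which differs between annotated isoforms. The shares named here moved in the same directions by mean transcript lengths. The fold change of a gene's own CPM between groups does not depend on length.

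Leukocyte-type integrin chains were near 0 except ITGB2, with ITGAE at a low level. Of 9 members in this group 4 were tested. ITGB2 (ENSG00000160255.18; chromosome 21, 44885953 to 44931989, minus strand), the β2 chain of the leukocyte receptors, measured 93.8, 95.8, 92.3 and 92.9 CPM in the empty-vector and 132, 131, 134 and 128 CPM in the ADRA2A libraries. The groups were tight and separate, at a fold of 1.40 while its 40 neighbours had a median log2 fold change of -0.11 (ITGB2 log2 fold change 0.49, standard error 0.04, edgeR adjusted p = 2.74e-09). The alpha chains known to pair with β2 were all too low to be tested: ITGAL had at most 2 counts in a library, ITGAD at most 2, ITGAM at most 8 and ITGAX at most 13. The general leukocyte marker PTPRC had at most 4 counts and CD3E had 0 in all libraries. Of 5 leukocyte markers tested, CD68, a lysosomal protein of macrophages, rose (log2 fold change 0.32) and LCP1, an actin-bundling protein, fell (-2.23), and CD14, CORO1A and LAPTM5 were not called. The list of 8 summed to between 119.9 and 129 CPM in the empty-vector and between 130.4 and 139.6 CPM in the ADRA2A libraries, and its part in ITGB2 was not tested. The 6 endothelial markers summed to between 2.05 and 2.71 CPM in the empty-vector and between 2.64 and 3.35 CPM in the ADRA2A libraries, with TEK and CLDN5 at 0. PECAM1 was at 0.773 and 2.44 CPM and KDR at 1.23 and 0.482 CPM, and each passed the filter through its higher group.

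ITGA4, a chain of the VCAM1 and fibronectin receptor α4β1, was at 19 to 31 counts in the empty-vector and 5 to 10 in the ADRA2A libraries, and passed the filter through the empty-vector libraries. Its means were 1.48 ± 0.221 and 0.471 ± 0.178 CPM (n = 4 each, SD). Its adjusted p is not printed since its entry rested on the group where it was high. ITGA4 is in the count of called members above, which is also given without it. ITGAE, whose αEβ7 receptor binds E-cadherin, was at 8.59 ± 0.875 and 6.56 ± 0.626 CPM (n = 4 each, SD; log2 fold change -0.39, standard error 0.12, edgeR adjusted p = 0.0123). It overlaps HASPIN on the opposite strand, which was at 9.09 and 7.73 CPM. ITGB7, the partner of ITGAE and ITGA4, had 1 to 19 counts and an adjusted p of 0.451 in edgeR's test. ITGA9 had at most 1 count in a library.

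For the laminins 7 of 11 members were tested, with 1 higher and 2 lower in the ADRA2A cells. These 3 of 7 are 42.9%, beside 42.7% of all genes. The median log2 fold change of the 7 was -0.05. LAMA1, LAMA2, LAMB4 and LAMC3 were at 16 counts or fewer in every library and were not tested. LAMA3 and LAMB3 encode the alpha and beta chains of laminin-332, the hemidesmosome ligand.

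LAMA3 (ENSG00000053747.16; chromosome 18, 23689453 to 23956222, plus strand) measured 609, 567, 601 and 585 CPM in the empty-vector and 440.3, 414, 392 and 400.1 CPM in the ADRA2A libraries. It was 1.44-fold lower with no overlap (log2 fold change -0.52, standard error 0.04, edgeR adjusted p = 9.63e-10). LAMB3 (ENSG00000196878.15; chromosome 1, 209614870 to 209652425, minus strand) measured 388, 391, 360.3 and 341 CPM in the empty-vector and 366, 335, 343 and 349.6 CPM in the ADRA2A libraries. Its groups overlapped, and the difference did not pass (log2 fold change -0.09, standard error 0.04, edgeR adjusted p = 0.102); without empty-vector replicate 4 it did (adjusted p = 0.0242).

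The surroundings of LAMA3 were lower in the ADRA2A cells too. Of its 40 nearest tested genes on chromosome 18, 37 had a log2 fold change below 0, with a median of -0.21. Among these 40, 2 were called higher and 19 lower, beside 21.6% and 21.1% of all genes. The median around LAMB3 was 0.07. The part of the chromosome 18 stretch in the value of LAMA3 was not tested. The RefSeq start printed above for LAMA3 lies 183567 bases inside the gene and matches 2 of its 15 annotated transcripts, the longest of 5618 bases, where the longest of the gene has 10651. The level of LAMA3 per kilobase was 55.4 ± 1.76 in the empty-vector and 38.6 ± 2.0 in the ADRA2A cells (n = 4 each, SD) by the longer length, and 105 and 73.3 by the shorter, a length chosen after the data were seen. LAMB3 was at 86.0 ± 5.53 and 80.9 ± 3.05 CPM per kilobase (n = 4 each, SD). The per-length ratio of LAMB3 to LAMA3 went from 1.55 ± 0.118 to 2.10 ± 0.0825 (n = 4 each, SD), without overlap, by the longest transcripts. With mean transcript lengths it was 0.807 and 1.09. Which chain was the more abundant in the empty-vector cells therefore depended on the length used, and the rise of the ratio did not.

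The chains of laminin-511 and laminin-521 are LAMA5, LAMB1 or LAMB2, and LAMC1. LAMB2 (ENSG00000172037.14; chromosome 3, 49121114 to 49133118, minus strand) was the 1 laminin gene of the 7 that rose. It measured 71.7, 68.5, 57.5 and 67.2 CPM in the empty-vector and 87.8, 85.6, 88.5 and 87.2 CPM in the ADRA2A libraries, a fold of 1.32 with no overlap (log2 fold change 0.40, standard error 0.05, edgeR adjusted p = 7.15e-06). LAMC1 (ENSG00000135862.6; chromosome 1, 183023420 to 183145592, plus strand), the gamma chain of most laminins, measured 314, 319, 319 and 331 CPM in the empty-vector and 284, 278, 267 and 286 CPM in the ADRA2A libraries. All ADRA2A libraries were lower (log2 fold change -0.20, standard error 0.03, edgeR adjusted p = 7.34e-05).

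LAMA5 was at 531 ± 33.3 and 527 ± 41.8 CPM and LAMB1 at 659.7 ± 6.61 and 676 ± 22.6 CPM (n = 4 each, SD), with adjusted p-values of 0.862 and 0.397 in edgeR's test. LAMA4, a chain best known from vessels, was at 27.8 ± 2.55 and 26.8 ± 1.25 CPM (n = 4 each, SD; edgeR adjusted p = 0.572). LAMA5 overlaps ADRM1 and LAMB1 overlaps DLD, on opposite strands, at 112 and 119 CPM in the empty-vector cells. The per-length ratio of LAMA3 to LAMA5 went from 1.19 ± 0.0563 to 0.841 ± 0.0723 and that of LAMB2 to LAMB1 from 0.119 ± 0.0107 to 0.153 ± 0.0049 (n = 4 each, SD), without overlap in either case. With mean transcript lengths the first ratio was 0.511 and 0.36, so which of LAMA3 and LAMA5 was the more abundant depended on the length used, and the fall of the ratio did not. Summed over the class, laminin alpha chains went from 106 ± 4.16 to 88.5 ± 4.27 CPM per kilobase, while beta chains were at 196 ± 6.68 and 197 ± 6.34 (n = 4 each, SD).

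**Figure D4:**
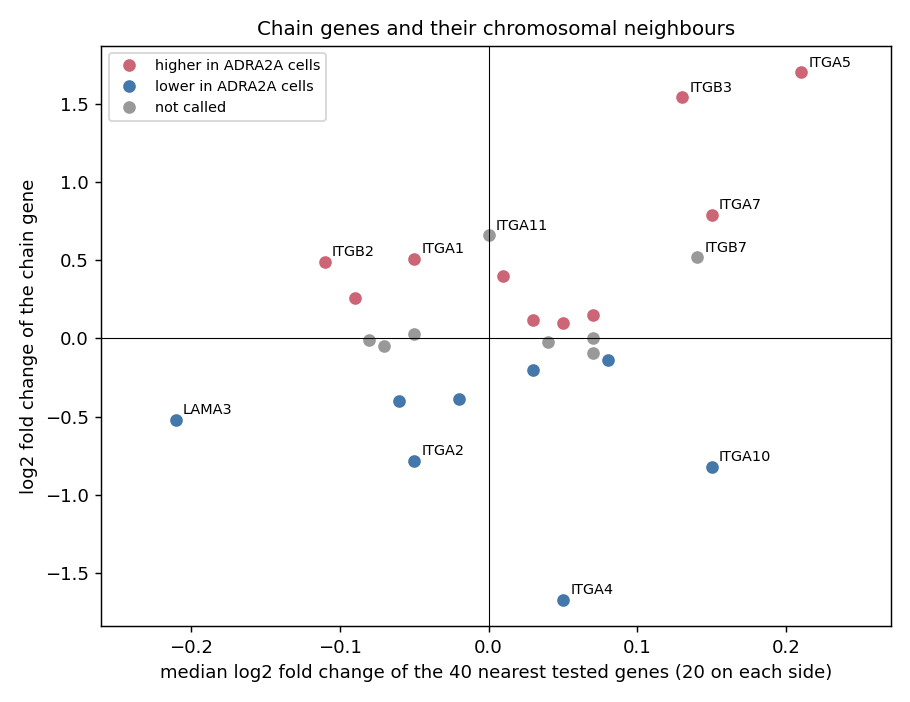
Log2 fold change of each of the 26 tested members (vertical axis) against the median log2 fold change of its 40 nearest tested genes (horizontal axis), coloured by the member's call. LAMA3 at -0.21 and ITGA5 at 0.21 have the neighbourhoods farthest from 0; ITGA10 fell among neighbours with a median of 0.15.

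Partner genes were taken from 4 lists. Among 32 tested adaptors and kinases that act under integrins, 7 rose and 14 fell, with a median log2 fold change of -0.09, beside 21.6% and 21.1% of all genes. Without 1 gene that passed the filter through the ADRA2A libraries, 6 of 31 were higher and 14 lower. FYN, a kinase of the SRC family, went from 10.6 ± 1.25 to 5.83 ± 0.943 CPM (n = 4 each, SD; log2 fold change -0.85), and FERMT1, the epithelial kindlin that activates beta chains, from 114 ± 4.64 to 72.7 ± 5.56 CPM (log2 fold change -0.65). TNS2, a tensin, rose by 0.33 and TLN2, a talin, by 0.31 on the log2 scale. The adjusted p-values of these 4 genes in edgeR's test lay between 3.5e-09 and 0.00529.

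Among 14 tested partners of hemidesmosomes and laminin receptors, 7 rose and 2 fell, beside 21.6% and 21.1% of all genes (list median log2 fold change 0.10). COL17A1, the transmembrane collagen that sits beside α6β4 in hemidesmosomes, went from 64.0 ± 3.32 to 146 ± 3.95 CPM (n = 4 each, SD; log2 fold change 1.19, edgeR adjusted p = 6.09e-14). CD82, a tetraspanin that associates with integrins, rose by 0.90 and RPSA, a ribosomal protein also described as a laminin receptor, was at -0.18. KRT5, the other gene called lower, was at 2.15 and 0.388 CPM and passed the filter through the empty-vector libraries; without it 7 were higher and 1 lower. It lies under the level for naming and was chosen after its value was seen. For 15 tested basement membrane partners 5 rose and 9 fell (median -0.58), beside the same 21.6% and 21.1% of all genes. Of the 15, 4 passed the filter through the empty-vector libraries, and without them 5 of 11 were higher and 6 lower (median -0.44). COL4A1, a chain of the main basement membrane collagen, went from 237 ± 6.28 to 138 ± 6.88 CPM and COL4A5 from 17.9 ± 0.680 to 7.85 ± 0.709 CPM (n = 4 each, SD; log2 fold changes -0.78 and -1.19). NID1, which links laminin to collagen IV, rose by 0.31 and AGRN, a heparan sulfate proteoglycan that binds laminin, by 0.24 on the log2 scale.

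Among 27 tested ligands of integrins other than laminin, 6 rose and 13 fell, beside 21.6% and 21.1% of all genes. Their median log2 fold change was -0.45. Without 1 gene that passed the filter through the empty-vector libraries, 6 of 26 were higher and 13 lower (median -0.39). SPP1, osteopontin, a ligand of αVβ3, went from 101 ± 5.89 to 651 ± 32.9 CPM (n = 4 each, SD; log2 fold change 2.68, edgeR adjusted p = 4.46e-19). FGB, a fibrinogen chain, rose by 1.37 on the log2 scale. FBN2, a fibrillin with an RGD motif, was at -2.97 and VCAM1, the ligand of α4β1, at -2.18, from 21.2 ± 2.18 to 4.69 ± 0.439 CPM (n = 4 each, SD; edgeR adjusted p = 2.69e-12). FN1, the ligand of α5β1, went from 37.6 to 15.6 CPM (log2 fold change -1.27), while ITGA5 rose; FN1 was named after its value was seen.

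**Figure D5:**
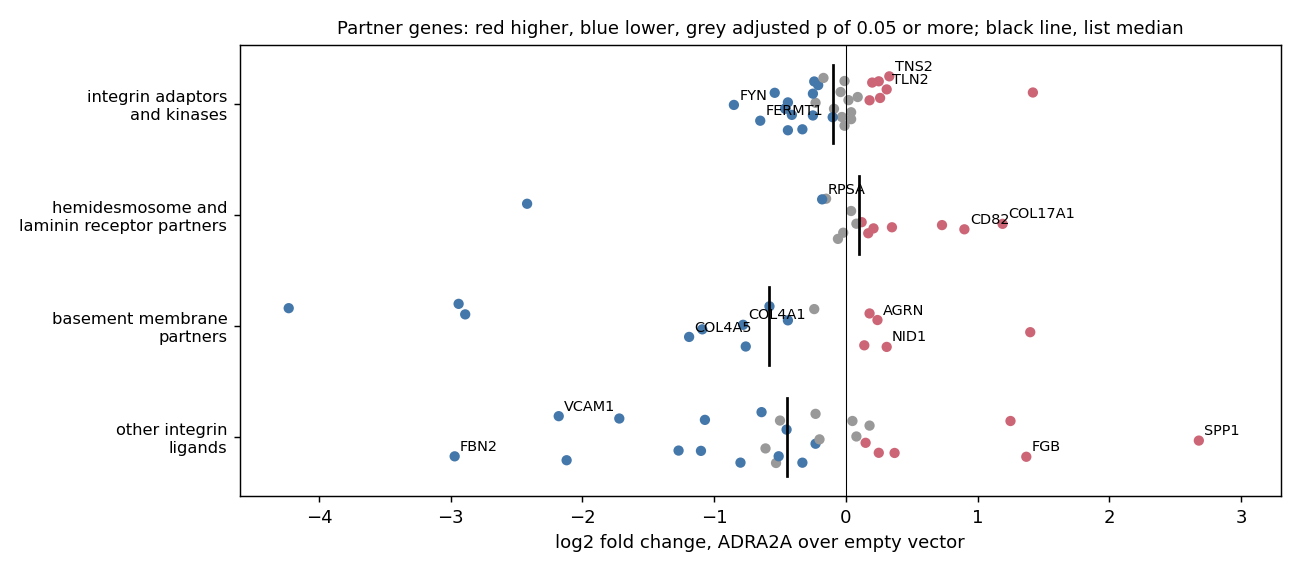
Log2 fold change of each tested partner gene in 4 lists (points), with the list median (black line); red points were called higher, blue lower and grey not called. The medians lie at -0.09, 0.10, -0.58 and -0.45 from top to bottom, and named genes are labelled.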

How the data were processed

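RNA sequencing of 8 CFPAC-1 samples was analysed from 1 table. The authors deposited RSEM estimated counts per gene and sample, not scaled between samples; cutadapt, STAR, RSEM and DESeq2 and the build hg38 are named in the submitters' processing notes. The annotation release, read length and use of strand are not given in the sources used here. All 8 value columns were matched to samples by the name in their titles. After rounding of the estimated counts to integers, filterByExpr left 14785 genes, and libraries were scaled by TMM (factors between 0.9938 and 1.0055). Differences were tested with edgeR 4.0.16 (glmQLFit and glmQLFTest, R 4.3.3) on the 8 libraries together, the genotype being the one term in the model, and p-values were adjusted by the Benjamini-Hochberg method over all genes tested. The standard error was taken as the size of the log2 fold change over the root of its F value. The same code was tested on simulated data. Total counts lay between 14427040 and 17528910 per library; no pair of replicates agreed within sampling noise (chi-square per degree of freedom of at least 2.12).

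Positions and transcript lengths are those of GENCODE 44 on GRCh38, which matched all 37 members by Ensembl identifier. CPM per kilobase used the longest annotated transcript. Promoters are RefSeq windows of GRCh38.p14. Members called at 0.05 that reached 10 CPM in the higher group with separate groups were given by library; in each partner list the 2 highest and 2 lowest called log2 fold changes of at least 10 CPM were named. The members, lists and rules were chosen with earlier results of these data known. Of the genes that match the naming rule, 1 is not reported here. In the ligand list 35 of 36 entries were analysed here. Alternatives were DESeq2 1.42.0, limma 3.58.1 voom, RLE and upper quartile factors, no filter, the replicate number as a block, a filter at 50 counts on average, leaving out each library, and other neighbour windows and lengths.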

Additional observations from a re-analysis of the deposited data

Results flagged for a closer look

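In groups of 4 libraries, 3 of 52 groups of member values (26 genes in 2 groups) had 1 library far from the others, and chance gives about 1 in 20. In the empty-vector cells these were ITGA7, with its highest library at 7.74 CPM, LAMA5, with its highest at 581 CPM, and LAMB1, with its highest at 669.6 CPM. Replicate 2 was the high library for ITGA7 and LAMB1 and replicate 1 for LAMA5. Without empty-vector replicate 2 the log2 fold change of ITGA7 was 0.91.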

How the results depend on the processing

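The count of members called was 18 and lay between 17 and 18 over the 7 other settings and the 8 fits that each left out 1 library, and the count of members without overlap was 16 with RLE factors too. Over 387 pairs of a tested member and an alternative, 373 kept direction and side of the threshold. The call of ITGAV was lost in 3 fits that left out a library and LAMB3 gained one in 1, as given above. Members near 0 changed sign without being called: ITGB6 was at -0.0121 with upper quartile factors and between -0.0216 and 0.0462 over the fits that left out a library, LAMA4 between -0.0974 and 0.0073 and LAMA5 between -0.0656 and 0.0319. With the replicate number as a block 18 members were called; the deviations of same-numbered libraries correlated between -0.04 and 0.07, so the numbers were not taken to pair the samples. Levels per kilobase of every tested member moved beyond their SD with mean transcript lengths. Neighbourhood medians moved with 10 or 40 genes on each side: that of LAMA3 was -0.18 and -0.26, that of ITGA5 0.41 and 0.13. With the filter at 50 counts on average 11 basement membrane partners were called in place of 14. Without genes that passed the filter through 1 group, chosen after the data were seen, 17 members and 20, 8, 11 and 19 genes of the adaptor, hemidesmosome, basement membrane and ligand lists were called. ITGA4, ITGA11 and ITGB7, at 31 counts or fewer in every library, have wide errors at this depth.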
